A study of Mus musculus with 6 samples.

Results

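The intermediate filament genes other than keratins and the lamin genes were examined in HM1 mouse embryonic stem (ES) cells carrying a Prmt6 expression plasmid or an empty vector. The 9 genes were taken by name: Vim, Des, Gfap, Prph, Nes and Synm encode cytoplasmic filament proteins, and Lmna, Lmnb1 and Lmnb2 encode lamins. Each was read by 1 probe set annotated to that gene alone, so all 9 were measured, of 19938 genes in all. HM1 cells of both groups grew in 15% serum with leukemia inhibitory factor (LIF) at 1000 U/ml, and RNA was taken after 3 days in puromycin at 1 ug/ml. The control group (3 arrays) carried pCAGIP.puro without an insert. The overexpression group (3 arrays) carried the same vector with mouse Prmt6, an arginine methyltransferase of the nucleus. Both groups thus share the transfection, the resistance plasmid and the drug. Each group is a drug-selected transfected population, and nothing in the labels tells separate cultures from repeat samples of a culture. The p-values therefore cover the spread among these 6 samples, which may be technical.

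Intermediate filaments are rope-like polymers whose subunits differ between cell types, and they give cells and nuclei mechanical strength. Vimentin (Vim) is the filament protein of mesenchymal cells, desmin (Des) of muscle, glial fibrillary acidic protein (Gfap) of astrocytes and peripherin (Prph) of peripheral neurons. Nestin (Nes), of neural and muscle progenitors, and synemin (Synm), of muscle and glia, assemble with partners such as vimentin or desmin. Lamins line the inner face of the nuclear envelope. B-type lamins (Lmnb1, Lmnb2) are made in nearly all cells, whereas A-type lamins (Lmna, which gives lamins A and C) are low in ES cells and accumulate as cells differentiate.

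With the Prmt6 plasmid, Vim rose 3.08-fold and Lmna rose 2.57-fold, while Synm fell. Nes and Prph rose by less, and Des, Gfap, Lmnb1 and Lmnb2 did not pass the test. So 4 of the 9 genes were called higher and 1 lower by limma at an adjusted p under 0.05, where 10.3% of all genes were called, 7.05% higher and 3.25% lower. The mean log2 level of the 9 genes per array was 7.29 to 7.34 in control, where the median of all gene means was 5.87. Calls were more frequent among brighter genes. A fit without genes under the median called 3016 of 9971, and 1606 of these were also called among all genes. The 4 rises became 2 without any 1 of the control arrays, when Nes and Prph no longer passed. The overexpression arrays lay entirely on 1 side of the control arrays in 5 of the 9 genes, against 29.7% of all genes. The median change of the 9 genes was -0.033 on the log2 scale, and that of all genes was 0.

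The promoters of the 3 genes with the largest changes are shown to set Vim and Lmna, which rose, beside Synm, which fell. They are the 250 bases before each annotated start, from RefSeq on GRCm38.p6, which covered 8 of the 9 genes. Lmna has 2 annotated starts, and which of them the probe set reads was not analysed here. Capitals mark matches on either strand to the TATA box (TATAAA), the GC box (GGGCGG) and the CCAAT box (CCAAT).
Vim, chr2:13574061-13574310, plus strand: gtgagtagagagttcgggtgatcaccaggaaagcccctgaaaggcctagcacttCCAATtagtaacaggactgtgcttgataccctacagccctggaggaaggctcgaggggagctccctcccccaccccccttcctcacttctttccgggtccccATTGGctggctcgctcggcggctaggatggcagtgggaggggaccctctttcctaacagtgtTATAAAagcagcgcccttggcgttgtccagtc
Lmna, upstream start, chr3:88503353-88503602, minus strand: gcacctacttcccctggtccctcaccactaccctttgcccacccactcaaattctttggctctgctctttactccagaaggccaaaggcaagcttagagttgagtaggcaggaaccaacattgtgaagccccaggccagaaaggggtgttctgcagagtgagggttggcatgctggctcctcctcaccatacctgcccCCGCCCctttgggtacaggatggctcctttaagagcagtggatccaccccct
Lmna, downstream start, chr3:88493313-88493562, minus strand: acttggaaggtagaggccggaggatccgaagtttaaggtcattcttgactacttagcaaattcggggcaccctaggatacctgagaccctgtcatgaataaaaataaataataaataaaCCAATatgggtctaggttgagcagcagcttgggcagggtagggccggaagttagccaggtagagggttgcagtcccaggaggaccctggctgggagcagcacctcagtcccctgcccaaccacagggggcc
Synm, chr7:67759743-67759992, minus strand: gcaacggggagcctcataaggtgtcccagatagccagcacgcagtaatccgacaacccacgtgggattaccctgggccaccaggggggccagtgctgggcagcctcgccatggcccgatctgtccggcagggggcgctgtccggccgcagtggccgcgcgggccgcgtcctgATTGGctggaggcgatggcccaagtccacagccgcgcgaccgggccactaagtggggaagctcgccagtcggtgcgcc

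The Vim window holds a TATA box that begins 32 bases before the start and 2 CCAAT boxes, 1 on each strand. TATAAA was in 12.4% of all 32851 promoter windows of the same length, and among the other windows of these genes only that of Prph had it, 31 bases before the start. The Synm window has a CCAAT box on the other strand 78 bases before the start, and the downstream Lmna window has 1 at 131 bases. CCAAT was in 33.8% of all windows. The upstream Lmna window has a GC box on the other strand, a motif in 32.7% of all windows. The Des, Nes and Prph windows and a window of Lmnb2 had a GC box too. The AP-1 site (TGANTCA, in 6.75% of windows) and the CArG box bound by serum response factor (1.47%) were searched on both strands in the windows of the 8 genes and had 0 matches. None of the matches shown overlap. The windows of Vim, Synm and the 2 Lmna starts held 58.4%, 70.0%, 56.4% (upstream) and 52.8% (downstream) G and C, where the median of all windows was 52.4%.

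Vim, the subunit of the mesenchymal filament network, had log2 signals of 10.29, 10.27 and 10.30 in control and of 11.95, 11.86 and 11.92 in overexpression. The 3 overexpression arrays all lay above the controls, and the gap between the groups was far wider than the spread within either. The change was 1.62 ± 0.067 (log2, SE, n = 3 per group), with a 95% interval of 1.47 to 1.78 (limma, adjusted p = 2.96e-06). It passed under all 16 alternative settings, at 1.57 to 1.67.

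Des, the muscle member of the same filament class, was at 5.70, 6.01 and 5.66 in control and 5.80, 5.70 and 5.75 in overexpression. The groups overlapped, and the highest array was control replicate 2. Its change of -0.04 did not pass (95% interval -0.27 to 0.19, limma adjusted p = 0.862), and its sign turned to 0.07 without that array. Gfap, of astrocytes, was at 4.43, 4.61 and 4.38 in control and 4.29, 4.41 and 4.62 in overexpression. These groups overlapped as well, at a signal so low that the gene fell below the 30th percentile of all gene means, and detection calls were not used here. Its change was -0.033 (95% interval -0.27 to 0.21, limma adjusted p = 0.890).

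Prph, the filament protein of peripheral neurons, was at 6.73, 6.76 and 6.67 in control and 7.09, 7.0 and 7.06 in overexpression. All overexpression arrays were higher, by a small step. It rose 1.26-fold (0.33 ± 0.07 on the log2 scale, SE, n = 3 per group, limma adjusted p = 0.0196). The call ended without control replicate 1 (adjusted p = 0.0756), 2 (0.0567) or 3 (0.0907).

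**Figure D1:**
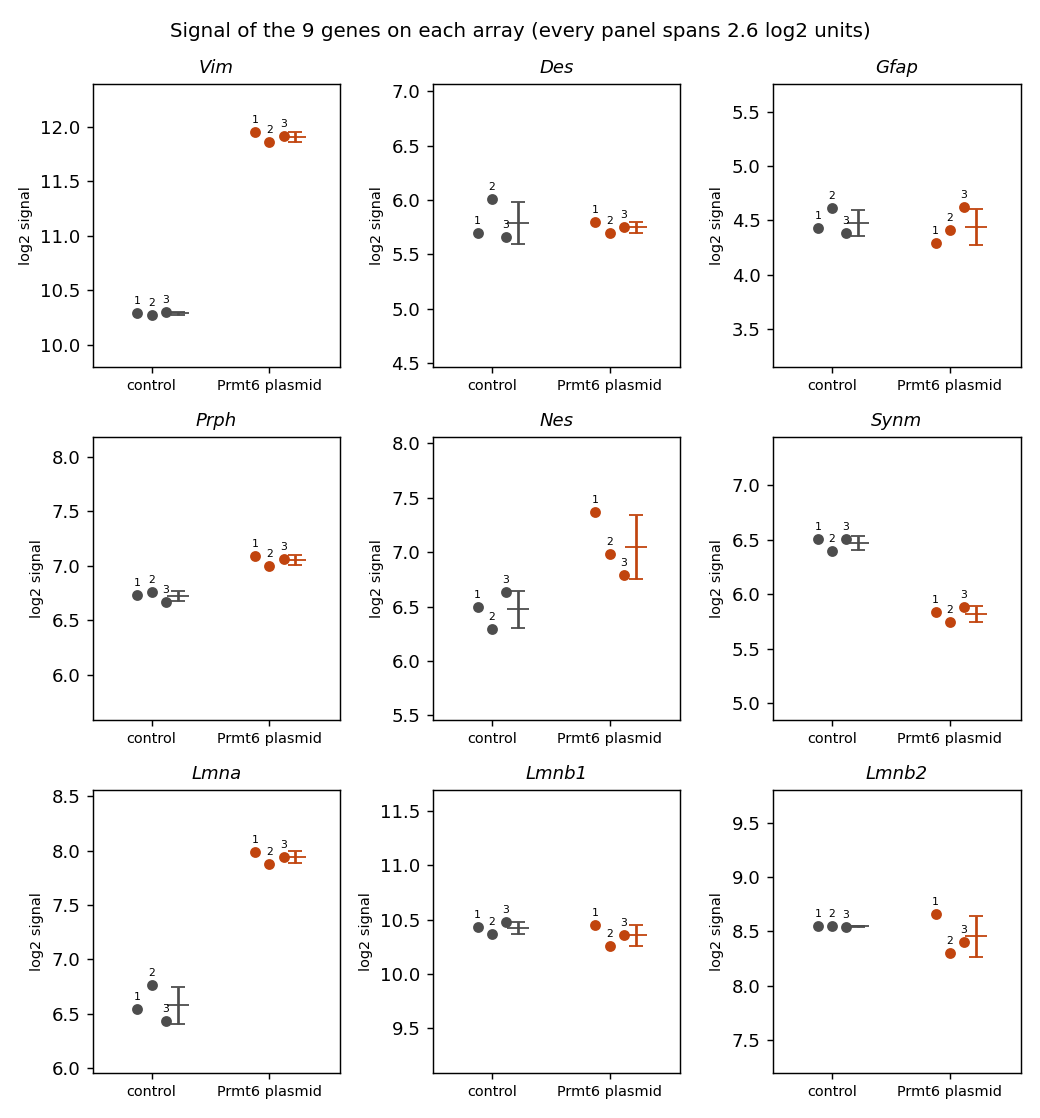
Log2 signal of each of the 9 genes on the 3 control and 3 Prmt6 plasmid arrays (points, numbered by replicate), with the mean and SD beside them; every panel spans the same height on its own log2 axis. The groups are separated in Vim, Lmna, Synm, Nes and Prph, and overlap in Des, Gfap, Lmnb1 and Lmnb2.

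Nes, the nestin of progenitor cells, was at 6.50, 6.29 and 6.63 in control and 7.37, 6.98 and 6.79 in overexpression. The groups did not overlap, but overexpression replicate 3 lay only just above control replicate 3, and the spread within the overexpression group (SD 0.296) was the widest of the 9 genes. Nes rose 1.49-fold (0.57 ± 0.15 on the log2 scale, SE, n = 3 per group), close to the threshold (limma adjusted p = 0.0474). The call ended without control replicate 1 (adjusted p = 0.118), 2 (0.146) or 3 (0.0663) or overexpression replicate 1 (0.0839) or 2 (0.103), and held without overexpression replicate 3 (0.0237). It also ended with arrays centred on the medians of the genes (0.0522) and with adjustment over all probe sets (0.128).

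Synm, which joins filaments of vimentin or desmin to other structures, was at 6.51, 6.40 and 6.51 in control and 5.84, 5.74 and 5.88 in overexpression. It was the gene among the 9 that was called lower, with every overexpression array below every control array. Its change was -0.65 ± 0.075 (log2, SE, n = 3 per group, limma adjusted p = 0.000946), with a 95% interval of -0.82 to -0.48. The call held under all 16 alternative settings, at -0.69 to -0.61.

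Vim and Nes, whose proteins assemble together, both rose but by unequal amounts. The difference of Vim minus Nes within an array was 3.81 ± 0.16 in control and 4.86 ± 0.28 in overexpression (log2, SD, n = 3). The difference thus grew by 1.05, and the 3 overexpression arrays were all above the controls. The exact two-sided permutation test gave p = 0.1, the smallest that 3 against 3 arrays allow, so it cannot pass 0.05. The same test was used for 3 such differences in all, and the offset between 2 probe sets within an array carries no meaning of its own.

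Lmna, the gene of lamins A and C, was at 6.54, 6.76 and 6.43 in control and 7.99, 7.88 and 7.94 in overexpression. The overexpression arrays lay close together, more than 1 log2 unit above the highest control. Lmna rose by 1.36 ± 0.096 (log2, SE, n = 3 per group, 95% interval 1.14 to 1.58, limma adjusted p = 5.79e-05), and the call held under all 16 alternative settings, at 1.29 to 1.45.

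Lmnb1, the gene of lamin B1, was at 10.43, 10.37 and 10.48 in control and 10.45, 10.26 and 10.36 in overexpression, and the groups overlapped. Its change was -0.07 ± 0.078 (log2, SE, n = 3 per group, limma adjusted p = 0.650), with a 95% interval of 0.842-fold to 1.08-fold. Lmnb2, the gene of lamin B2, was at 8.55, 8.55 and 8.54 in control and 8.66, 8.30 and 8.40 in overexpression. The control arrays were nearly equal, and the overexpression arrays lay on both sides of them. The change of Lmnb2 was -0.093 ± 0.098 (limma adjusted p = 0.630), with an interval of 0.802-fold to 1.10-fold. Under the 16 alternative settings the changes of Lmnb1 and Lmnb2 stayed between -0.20 and -0.017 without passing.

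Lmna was also set against each B-type gene within the same arrays. Lmna minus Lmnb1 was -3.89, -3.61 and -4.05 in control and -2.46, -2.38 and -2.42 in overexpression, a shift of 1.43. Lmna minus Lmnb2 was -2.01, -1.79 and -2.11 in control and -0.67, -0.42 and -0.46 in overexpression, a shift of 1.45. In both differences all overexpression arrays were above all controls, and the exact two-sided permutation p was 0.1 for each, the smallest the design allows.

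**Figure D2:**
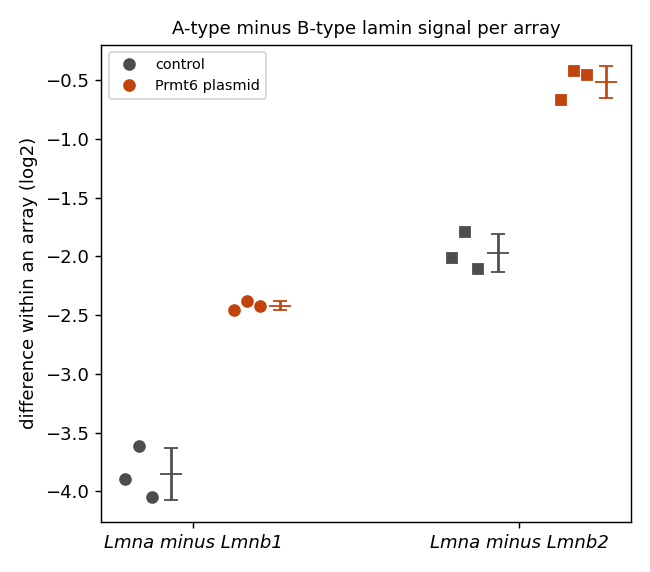
Log2 signal of Lmna minus that of Lmnb1 (circles) or Lmnb2 (squares) within each array, with the mean and SD of the 3 arrays of a group beside the points. Both differences shifted up with the Prmt6 plasmid, by 1.43 and 1.45; the height of a group by itself depends on the probe sets and is not read.

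**Figure D3:**
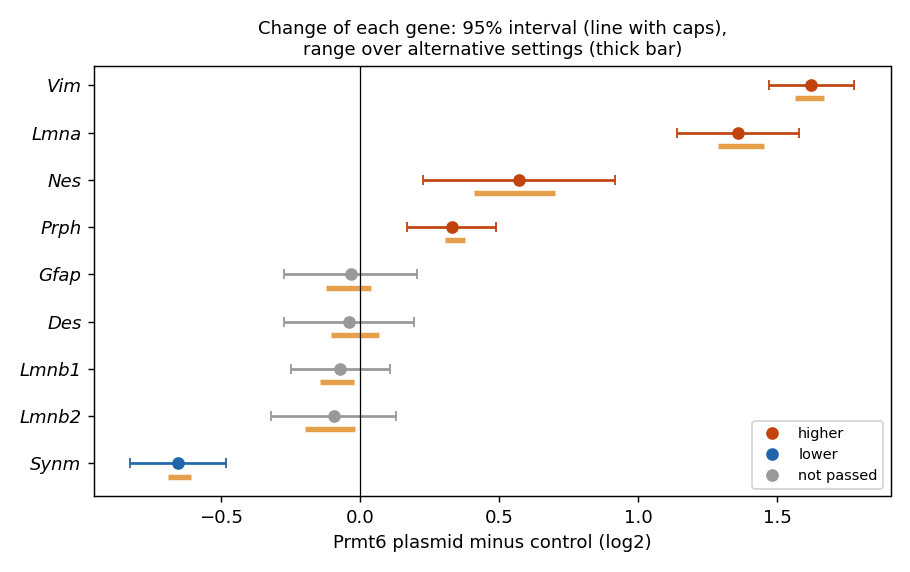
Change of each gene (Prmt6 plasmid minus control, log2) with its 95% interval from limma, and below it the range of the change over the alternative settings. The intervals of Vim, Lmna, Nes and Prph lie above 0 and that of Synm below it, while those of Gfap, Des, Lmnb1 and Lmnb2 span 0.

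The genes with profiles most like those of the 3 largest changes were sought among 18230 other named genes, by Euclidean distance over the 6 arrays after subtracting each gene's control mean. The genes nearest to Vim were Tnfrsf12a, a receptor of the tumour necrosis factor family, Plin2, a coat protein of lipid droplets, and Emp3, an epithelial membrane protein, at distances of 0.0926, 0.138 and 0.168 on the log2 scale. They rose by 1.67, 1.56 and 1.67. The genes nearest to Lmna were the netrin receptor gene Unc5b, the collagen gene Col1a1 and the phosphatase gene Dusp1, at distances of 0.167, 0.171 and 0.183, and they rose by 1.38, 1.34 and 1.28. The genes nearest to Synm were Frmd5, Mmp25, a membrane-bound metalloproteinase, and Rev1, a DNA polymerase of damage tolerance. They fell by 0.64, 0.63 and 0.65 at distances of 0.0374, 0.119 and 0.126. All 9 passed the limma test, which the choice by profile made likely.

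Among the 9 other intermediate filament genes outside the keratins, 3 rose, 2 fell and 4 did not pass, with a median change of -0.017 against 0 for all genes. Of all genes 7.05% rose and 3.25% fell. The neurofilament genes moved in different directions. The medium chain gene Nefm was at 5.48, 5.16 and 5.32 in control and 6.37, 6.02 and 6.06 in overexpression, a rise of 0.83 ± 0.12 (log2, SE, n = 3 per group, limma adjusted p = 0.00303). The light chain gene Nefl rose by 0.43 ± 0.08 (adjusted p = 0.0108), and this call ended without control replicate 1 (0.0540) or 2 (0.0516). The heavy chain gene Nefh was at 7.91, 7.81 and 7.74 in control and 7.43, 7.37 and 7.24 in overexpression, and its change was -0.47 ± 0.083 (adjusted p = 0.00816). The groups did not overlap in any of the 3 genes, which was also so for 29.7% of all genes. Ina, the gene of the neuronal filament protein internexin, was at -0.18 without passing (adjusted p = 0.228). Iffo2, a gene of the family of intermediate filament orphans, rose by 0.68 ± 0.086 (adjusted p = 0.00156). Its relative Iffo1 fell by 0.30 (adjusted p = 0.0427), a call lost when any array was left out (0.0522 to 0.156), under quantile normalization (0.0533) and with centring on the median of all probe sets (0.0798). Of the neuronal markers, Tubb3, a tubulin of neurons, rose by 0.53 and 7 of 8 did not pass (all genes: 7.05% higher). These 7 were Map2 (-0.013), Snap25 (-0.063), Dcx (0.087), Stmn2 (0.19), Elavl3 (-0.13), Rbfox3 (-0.13) and Isl1 (-0.18). Snap25 and Dcx lay below the 30th percentile of all gene means (4.85). The mean log2 level of the 8 markers per array was 5.96 to 5.99 in control and 6.00 to 6.01 in overexpression. Its part in the changes of Prph and the neurofilament genes was not tested.

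Of 11 linkers and chaperones of intermediate filaments, 7 rose, 1 fell and 3 did not pass (all genes: 7.05% higher, 3.25% lower), with a median change of 0.51. Their mean log2 level per array was 7.58 to 7.60 in control, above the median of all gene means (5.87). In the fit without genes under that median, 1937 of 9971 genes rose and 1079 fell, and the same 7 and 1 were counted in this list. The largest rise was that of Cryab, the small heat shock protein that chaperones desmin and vimentin, at 6.43, 6.38 and 6.52 in control and 9.17, 8.93 and 9.0 in overexpression. It rose 6.02-fold (2.59 ± 0.086 on the log2 scale, SE, n = 3 per group, limma adjusted p = 1.14e-06). Plec, the gene of plectin, which ties intermediate filaments to actin, microtubules and the nucleus, was at 7.51, 7.42 and 7.35 in control and 8.88, 8.61 and 8.58 in overexpression. It rose 2.40-fold (adjusted p = 9.65e-05). For both genes every overexpression array was above every control array. Dsp, the gene of desmoplakin, which anchors filaments at desmosomes, rose by 2.06 ± 0.094 (adjusted p = 5.35e-06). The desmosomal plaque genes Pkp2 and Jup rose by 0.88 and 0.51, and the small heat shock protein gene Hspb1 by 0.58. Desmosomes anchor keratins above all, and they anchor desmin in heart muscle. Ppl, the gene of periplakin, rose by 0.26 (adjusted p = 0.0421), a call lost when any array was left out (0.0521 to 0.155) and with centring on the medians of the genes (0.0599). Dst, a giant linker gene of the plectin family, was the gene of this list that fell, by 0.40 (adjusted p = 0.00712).

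**Figure D4:**
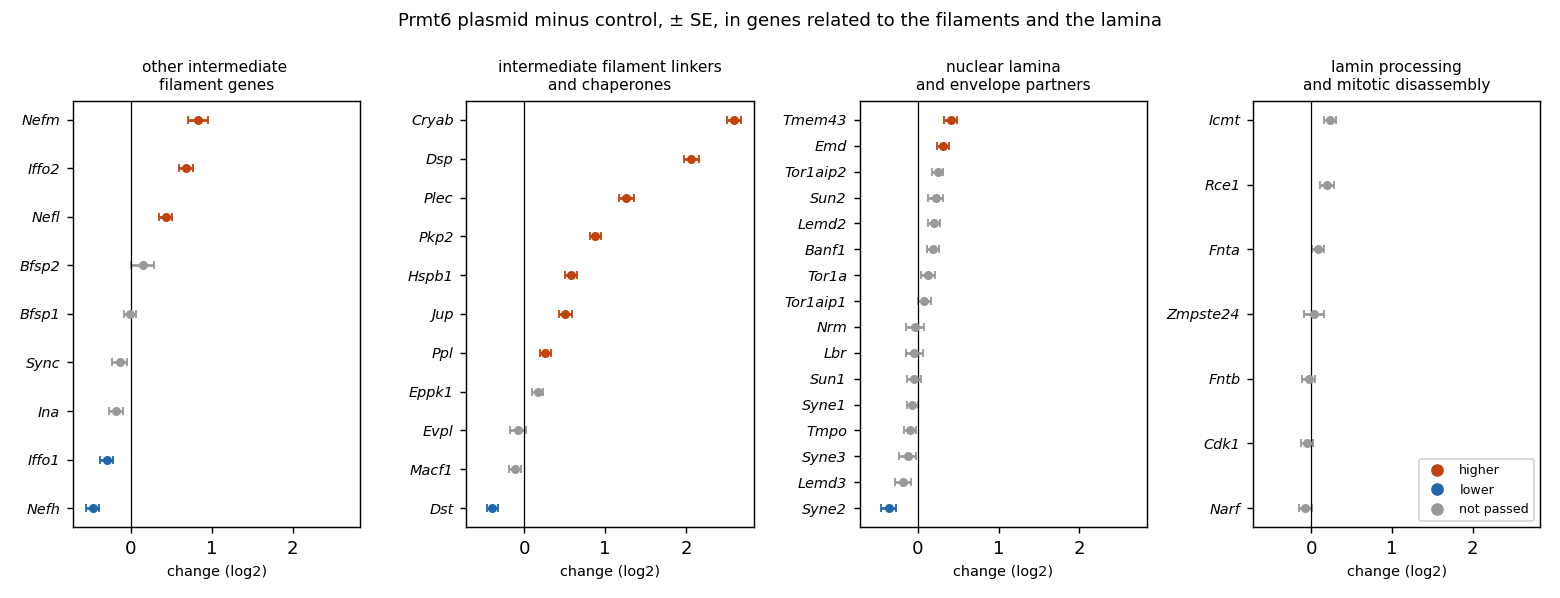
Change (Prmt6 plasmid minus control, log2, ± SE, n = 3 per group) of the measured genes of 4 lists, coloured by whether limma called them higher, lower or neither. The called genes are 3 higher and 2 lower of 9 other filament genes, 7 and 1 of 11 linkers and chaperones, 2 and 1 of 16 envelope partners and 0 of 7 processing genes, where 7.05% of all genes were higher and 3.25% lower; differences between the lists were not tested.

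Of 16 partners of the lamins in the nuclear envelope, 2 rose, 1 fell and 13 did not pass, with a median change of 0.025. With 7.05% of all genes higher and 3.25% lower, these counts of calls are near the background, and when 1 array was left out 0 to 1 rose and 0 to 1 fell. An unadjusted limma p under 0.05 was found in 7 of the 16, against 24.5% of all genes. Emd, the gene of emerin, an inner membrane protein held in place by A-type lamins, was at 8.98, 9.01 and 8.89 in control and 9.32, 9.24 and 9.25 in overexpression. It rose by 0.31 ± 0.071 (log2, SE, n = 3 per group, limma adjusted p = 0.0287). Tmem43, an inner membrane protein that binds emerin, rose by 0.41 ± 0.075 (adjusted p = 0.0108), and Syne2, the gene of the giant outer membrane linker nesprin-2, fell by 0.36 (adjusted p = 0.0420). The groups did not overlap in these 3 genes, but this held for 8 of the 16 partners and for 29.7% of all genes. The call of Emd was lost when any array was left out (0.0520 to 0.123) and that of Tmem43 without control replicate 3 (0.0534). That of Syne2 ended without every array but control replicate 2 (0.0620 to 0.150), under quantile normalization (0.0631) and with arrays centred on the median of all probe sets (0.0662). Lbr, the lamin B receptor gene, was at -0.04, and Tmpo, the gene of the lamina-associated LAP2 proteins, was at -0.097. Sun1 and Sun2, which pass force from the cytoskeleton to the lamina, were at -0.043 and 0.22. None of these 4 passed.

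Of the enzymes that farnesylate, methylate and cleave lamin precursors, the lamin A-binding Narf and the kinase that disassembles the lamina in mitosis, 0 of 7 measured genes passed with limma, and 1 of 7 had an unadjusted p under 0.05, as had 24.5% of all genes. That gene was Icmt, the methyltransferase acting after farnesylation, at 0.23 ± 0.07 (adjusted p = 0.0755). Zmpste24, the protease that matures lamin A, was at 0.033 ± 0.12 (adjusted p = 0.906), and Cdk1, the mitotic kinase, at -0.05. The median change of the list was 0.033.

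Markers of cell types that make these filaments were read in the same arrays. In such bulk samples, fewer cells of a type and less RNA per cell cannot be told apart. Of 15 fibroblast markers, 8 rose and 7 did not pass (all genes: 7.05% higher), with 3 to 7 rises when 1 array was left out (3 without control replicate 1). Their mean log2 level per array went from 5.08 to 5.15 in control to 5.50 to 5.59 in overexpression. Lox, which crosslinks collagen, rose by 1.51 and Col1a1 by 1.34. The 7 that did not pass were Thy1 (0.043), Fap (-0.023), Lum (0.063), S100a4 (-0.017), Col6a1 (0.077), Twist1 (0.22) and Postn (0.22). Fap, Lum and Postn had mean control signals of 2.88, 2.59 and 3.68, below the 30th percentile of all gene means (4.85). Dcn (3.83 in control), which rose, was below it as well. The 8 fibroblast markers that rose did so in the same arrays as Vim, Lmna, Cryab and Plec, and their part in those changes was not tested.

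Of 13 muscle markers, 3 rose, 1 fell and 9 did not pass (all genes: 7.05% higher, 3.25% lower). The striated muscle actin genes Actc1 (1.23) and Acta1 (1.05) rose, as did Smtn, of smooth muscle (0.28), whose call was lost when any array was left out (adjusted p up to 0.171), under quantile normalization (0.0508) and with centring on the medians of the genes (0.0565). Ttn, the gene of titin, fell by 0.44, and the myogenic factor genes Myod1 and Myog, at -0.027 and -0.24, did not pass. Their mean level was 5.58 to 5.63 in control and 5.64 to 5.80 in overexpression. Of 8 neural progenitor markers 0 passed with limma and 1 had an unadjusted p under 0.05 (24.5% of all genes), with mean levels of 5.41 to 5.43 in control and 5.31 to 5.51 in overexpression. The neural progenitor marker with that p was Prom1, at -0.20 (limma adjusted p = 0.146). The others were Sox1 (0.073), Pax6 (-0.017), Fabp7 (-0.01), Msi1 (-0.18), Neurog2 (-0.25), Olig2 (0.24) and Pax3 (0.23). Of 8 glial markers 0 passed with limma and 1 had an unadjusted p under 0.05, against the same share, with mean levels of 5.14 to 5.23 in control and 5.12 to 5.31 in overexpression. That marker was Mbp, of myelin, with a change of 0.37 (adjusted p = 0.0825). It passed without control replicate 2 (0.0404), with genes below the 30th percentile left out (0.0386), under quantile normalization (0.0399), with the trended and robust prior (0.0439) and with centring on the median of all probe sets (0.0368).

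Markers of ES cells were read on all 6 arrays, where the mean log2 level of 12 of them was 10.33 to 10.37 in control and 10.27 to 10.29 in overexpression. None of them rose and 3 fell (all genes: 3.25% lower). In the fit without genes under the median, 1079 of 9971 genes fell. Tdgf1 and Nanog were at -0.35 and -0.34 and Sox2 at -0.29, and Pou5f1 was at 0.19 without passing. The Sox2 call was lost when any array was left out (adjusted p 0.0549 to 0.163) and under either centring (0.0724 and 0.111). Those of Tdgf1 and Nanog were lost without any of the control arrays (0.0511 to 0.0864 and 0.0552 to 0.0765), and that of Tdgf1 also without overexpression replicate 2 (0.0534). Prmt6 itself was at 6.84, 6.58 and 7.12 in control and 7.32, 7.40 and 7.33 in overexpression. It rose 1.42-fold (limma adjusted p = 0.0406), a call that ended without any 1 array but control replicate 3 (0.0788 to 0.119). With a replicate block the calls of Prmt6 (0.0615), Nanog (0.0615), Tdgf1 (0.0666) and Sox2 (0.116) ended as well. Over all genes 1405 rose and 647 fell, so 68.5% of the calls were rises, and 80.4% were with arrays centred on the median of all probe sets. Pearson correlations between arrays, taken across probe sets (not independent replicates), were 0.986 to 0.992 within groups and 0.980 to 0.987 between them.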

How the data were processed

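RNA (5 ug of total RNA per sample) from 6 samples was hybridised to 1 Affymetrix array each. The deposited values are log2 signals that the authors made by robust multi-array average (RMA; no version is named), per the submitters' processing notes. RMA equalizes array distributions and so takes out most of a shift common to all genes. The array medians over all probe sets still differed, at 5.60 to 5.62 in control and 5.54 to 5.59 in overexpression. The median SD of a gene was 0.082 in control and 0.115 in overexpression, while limma fitted 1 variance per gene to both groups. The 35556 probe sets ran from 0.84 to 14.38 with 0 missing values, and precision is limited by the 6 arrays.

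Genes were named from the platform annotation (21789 probe sets had 1 symbol, 1621 several, 12146 none). For a gene with several single-symbol probe sets the brightest on average was used, which left 19938 genes. The groups, from the sample titles, were compared with limma 3.58.1 in R 4.3.3 (lmFit, eBayes), two-sided, with Benjamini-Hochberg adjustment over all genes and 0.05 as the threshold, and within-array differences with an exact permutation test. Changes are overexpression minus control. The main fit did not treat samples of the same replicate number as pairs.

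The 9 genes and the lists were chosen with earlier results of these data known. Named genes were the 9, Prmt6, up to 4 called genes with the largest change of each list of related genes (2 of each marker list) or the gene with the smallest p, and the 3 nearest profiles of each of the 3 genes with the largest change. Other genes were named after their values were seen. Some genes of these lists are not reported here. The alternatives comprised leaving out each array, a replicate block, filters at the 30th percentile and the median of the gene means, centring on the genes' medians, averaging the probe sets of a gene, quantile normalization, adjustment over all probe sets, a trended and robust prior, and array weights. Centring on the median of all probe sets was added after seeing the data. In data simulated for this comparison over 19938 genes, 65.3% of genes changed by 0.6 (log2) and 90.7% of those changed by 1 were recovered. Far fewer genes were changed in the simulation than were called in the data, so its adjusted threshold was stricter. Plots used matplotlib 3.10.9 (Python 3.11.15).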

Additional observations from a re-analysis of the deposited data

How the results depend on the processing

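The calls of Vim, Lmna and Synm, and the failure of Lmnb1 and Lmnb2 to pass, held under all 16 alternative settings. Of the 9 genes, 4 were called higher, and 2 to 4 were when 1 array was left out. The sign of Des turned under quantile normalization (0.0094), without control replicate 2 (0.07, against -0.105 without control replicate 3) and with centring on the median of all probe sets (0.0067). That of Gfap turned under quantile normalization (0.028), with that centring (0.013), without control replicate 2 (0.035) and without overexpression replicate 1 (0.042, against -0.12 without overexpression replicate 3). Neither gene was called in any setting. Gfap was left out by both filters on dim genes and Des by that at the median.

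Over all genes, leaving out 1 array gave 862 to 1232 rises and 280 to 763 falls. Leaving out genes below the 30th percentile or below the median gave 990 and 1079 falls, array weights 1098 and the trended and robust prior 1115. The rises among the nuclear envelope partners (2 in the report) numbered 0 to 1 without 1 array, 4 with genes under the median left out, 4 with the trended prior and 5 with array weights. Their fall (1) numbered 0 to 1 without 1 array, 0 under quantile normalization and 0 with centring on the median of all probe sets. Falls among the other filament genes (2) numbered 1 without any 1 array, 1 under quantile normalization and 1 with that centring. Among the lamin processing genes 1 rose, namely Icmt, with either filter, with the trended prior and with that centring. The cause was not tested, except that filters test fewer genes and leaving out an array uses fewer samples.

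Correlations of same-numbered deviations from the group means were -0.019, -0.016 and -0.12, so no sample was most like its own number. Control replicate 3 with overexpression replicate 1 gave 0.114, and control replicate 2 with overexpression replicate 3 gave 0.112. Such correlations cannot show whether the samples were prepared in pairs. With the replicate block, 2 of the 9 genes were higher (Nes at adjusted p = 0.0586 and Prph at 0.0694 did not pass) and 1 was lower. Falls over all genes numbered 383, and the block gave 1 rise and 0 falls among the envelope partners and 1 fall among the other filament genes. It ended the limma calls of Emd (adjusted p = 0.0813), Syne2 (0.0522), Iffo1 (0.0888), Ppl (0.122) and Smtn (0.104). Those of Prmt6, Nanog, Tdgf1 and Sox2 ended too. With 3 arrays per group, changes near 0.3 on the log2 scale may be missed, and 10.7% of such genes were recovered in simulated data. Far fewer genes were changed in the simulation than were called here. That makes the adjusted threshold stricter there, so the share recovered may not hold for these data.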
